A study of Homo sapiens with 16 samples.

Results

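Glycolysis and HIF target genes are a set of 39 genes among the 57773 genes of the count table. They were chosen by name for their known function, with earlier results of these data known. They comprise 4 transporters of glucose and lactate, 8 enzyme genes of the hexose steps of glycolysis, 7 of the triose steps, 6 genes that handle lactate or control the entry into and exit from glycolysis, 4 genes of pH control and mitophagy, 7 of matrix and stress, and 3 secreted factors. All 39 were among the 20175 genes with enough reads to be tested. RNA-seq had been performed on populations of 4 lines of human clear cell renal cell carcinoma (ccRCC), namely A498, 769-P, CAKI-2 and 786-O, infected with lentiviruses that carried Cas9 and a guide RNA. In each line 1 library came from cells with a control guide (sgCtrl) and 2 from cells with guides against KDM5C, an X-linked histone demethylase (sgKDM5C 4 and 5, both directed at the same exon). 786-O and CAKI-2 each had 2 further libraries with guides against KDM5D, its Y-linked homologue (sgKDM5D 2 and 4), which made 16 libraries in 10 groups. All groups thus carried Cas9, a guide and a viral selection marker, each line is a single line, and a control stands on 1 library.

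Glycolysis converts glucose to pyruvate, and lactate dehydrogenase converts pyruvate to lactate, which leaves the cell through monocarboxylate transporters. Many of these genes are transcribed at a higher rate when a hypoxia-inducible factor (HIF), a pair of ARNT with HIF1A or EPAS1, binds a short core sequence in their regulatory DNA. VHL marks the HIF alpha subunits for degradation in the presence of oxygen, and ccRCC is known for loss of VHL and for glycolytic, angiogenic gene expression.

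Total counts were 23.4M to 41.6M per library (M, 10 to the power 6). The KDM5C transcript was at 26.2% to 57.3% of the control of its line in the 8 sgKDM5C libraries, whereas the KDM5D transcript was at 79.1% and 76.2% in the 786-O libraries labelled sgKDM5D and at 103% and 102% in those of CAKI-2, so the transcript level does not check the sgKDM5D labels. The 7 measured markers of kidney epithelial and ccRCC cells summed to 2655 to 4248 CPM (counts per M of the scaled library total) in every library, against 0 to 0.624 CPM for 4 leucocyte markers, 0 to 3.36 CPM for 2 endothelial markers and 5.56 to 42.1 CPM for 4 fibroblast markers. PAX8 was present in all lines, but CA9, both a member of the set and a marker of ccRCC, was at or near 0 outside A498. KRT8, at 889 to 2468 CPM, and VIM, at 586 to 2604 CPM, made up much of the sum of the 7 markers. NNMT, another of the 7, was at 0.7406 to 2.003 CPM in the CAKI-2 libraries and at 83.02 to 146.1 CPM elsewhere. In the 786-O sgKDM5C 4 library the 14 members outside glycolysis had a median log2 ratio of 0.42 to the control. The median was 0.08 in the sgKDM5C 5 library of that line, and 0.05 and 0.29 in its sgKDM5D 2 and 4 libraries. The 25 glycolytic members did not share this, with medians of 0.05 in sgKDM5C 4 and 0.15 in sgKDM5C 5. For NDRG1 and PDK1 the change is also given without the 786-O sgKDM5C 4 library.

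The promoters of the members were inspected for the HIF core, the 5 letters ACGTG or GCGTG on either strand, in windows from 250 bases before to 50 bases after each RefSeq transcription start (GRCh38.p14). Such windows were given for 34 of the 39 members, 62 windows in all, since several genes have more than 1 start. ACGTG was found in 46.8% of the member windows and in 21.4% of all 35116 windows, GCGTG in 41.9% and 36.5%, and either core in 71% and 48.4%. A match shows only that the letters are there. SLC2A3, SLC16A1, BNIP3L, NDRG1 and VEGFA were not among the windows. The 4 windows below belong to the members with a single window whose levels differed most between the lines, CA9, ANGPTL4 and ADM, which were highest in A498, and ALDOC, which was highest in CAKI-2. Capitals mark either core, and CACGTG in the ALDOC window holds ACGTG on both strands, so that window has 5 matches against 1 in each of the other 3. The windows are chr9:35673678-35673977 on the plus strand for CA9, chr19:8363905-8364204 on the plus strand for ANGPTL4, chr17:28576846-28577145 on the minus strand for ALDOC and chr11:10304823-10305122 on the plus strand for ADM.
CA9: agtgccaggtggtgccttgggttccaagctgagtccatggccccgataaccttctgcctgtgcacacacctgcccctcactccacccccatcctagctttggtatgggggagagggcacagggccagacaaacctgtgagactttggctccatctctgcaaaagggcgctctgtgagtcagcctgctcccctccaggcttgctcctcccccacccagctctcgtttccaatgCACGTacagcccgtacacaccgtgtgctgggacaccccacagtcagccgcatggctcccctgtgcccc
ANGPTL4: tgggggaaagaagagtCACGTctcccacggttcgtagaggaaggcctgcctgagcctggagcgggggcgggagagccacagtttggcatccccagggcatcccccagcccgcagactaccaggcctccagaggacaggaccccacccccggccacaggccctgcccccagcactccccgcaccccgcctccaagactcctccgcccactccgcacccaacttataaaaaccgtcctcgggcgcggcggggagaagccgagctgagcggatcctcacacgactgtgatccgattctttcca
ALDOC: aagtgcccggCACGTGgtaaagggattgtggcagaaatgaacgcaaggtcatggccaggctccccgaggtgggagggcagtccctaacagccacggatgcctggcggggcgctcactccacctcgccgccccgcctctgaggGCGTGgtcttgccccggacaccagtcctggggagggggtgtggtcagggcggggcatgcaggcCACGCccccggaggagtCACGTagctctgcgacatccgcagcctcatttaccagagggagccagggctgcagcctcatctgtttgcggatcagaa
ADM: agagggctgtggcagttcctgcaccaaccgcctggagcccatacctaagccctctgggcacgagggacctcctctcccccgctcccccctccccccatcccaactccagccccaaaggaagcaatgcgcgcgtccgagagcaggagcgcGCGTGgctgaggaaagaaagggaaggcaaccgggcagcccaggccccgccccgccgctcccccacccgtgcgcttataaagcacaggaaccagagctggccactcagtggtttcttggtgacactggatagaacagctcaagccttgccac

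The first comparison was between the cell lines. The level of a line was taken from its sgCtrl and sgKDM5C libraries, 3 per line, and values below are means ± SD over these libraries (n = 3) in CPM of the TMM-scaled total unless a single library is named. The 4 lines differed in all 39 members (adjusted p under 0.05, edgeR quasi-likelihood F-test), beside 91.5% of all genes tested, so a difference between lines is not particular to the set. 769-P had the lowest level in 24 of the 39 members, whereas it was lowest in 25% of all genes tested. Of these 24, 21 were called below the next line, a count that has no share over all genes beside it. A498 was lowest in 12 members (27.2% of all genes), CAKI-2 in 2 (20.4%) and 786-O in 1 (27.3%). CAKI-2 had the highest level in 16 members (24.8% of all genes), A498 in 10 (31.8%), 786-O in 9 (20%) and 769-P in 4 (23.5%).

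Between pairs of lines, 16 members were higher and 16 lower in 786-O than in CAKI-2, beside 29.2% and 35.8% of all genes tested. Against A498, 17 were higher and 13 lower in 786-O, beside 31.4% and 38.6%. CAKI-2 exceeded A498 in 19 members and was below it in 12, beside 34.4% and 32.9%. The 3 comparisons with 769-P were less even: 28 members were higher and 6 lower in 786-O (25.4% and 27% of all genes), 31 higher and 5 lower in CAKI-2 (36.2% and 29.5%), and 24 higher and 13 lower in A498 (38.8% and 32.3%). The median log2 difference of the 39 members from 769-P was 0.79 for 786-O, 1.21 for CAKI-2 and 0.66 for A498, where the medians over all genes were -0.01, 0.09 and 0.15. These p-values measure the spread between populations infected with different guides, since no independent cultures are stated, and the lines differ in much else.

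**Figure D1:**
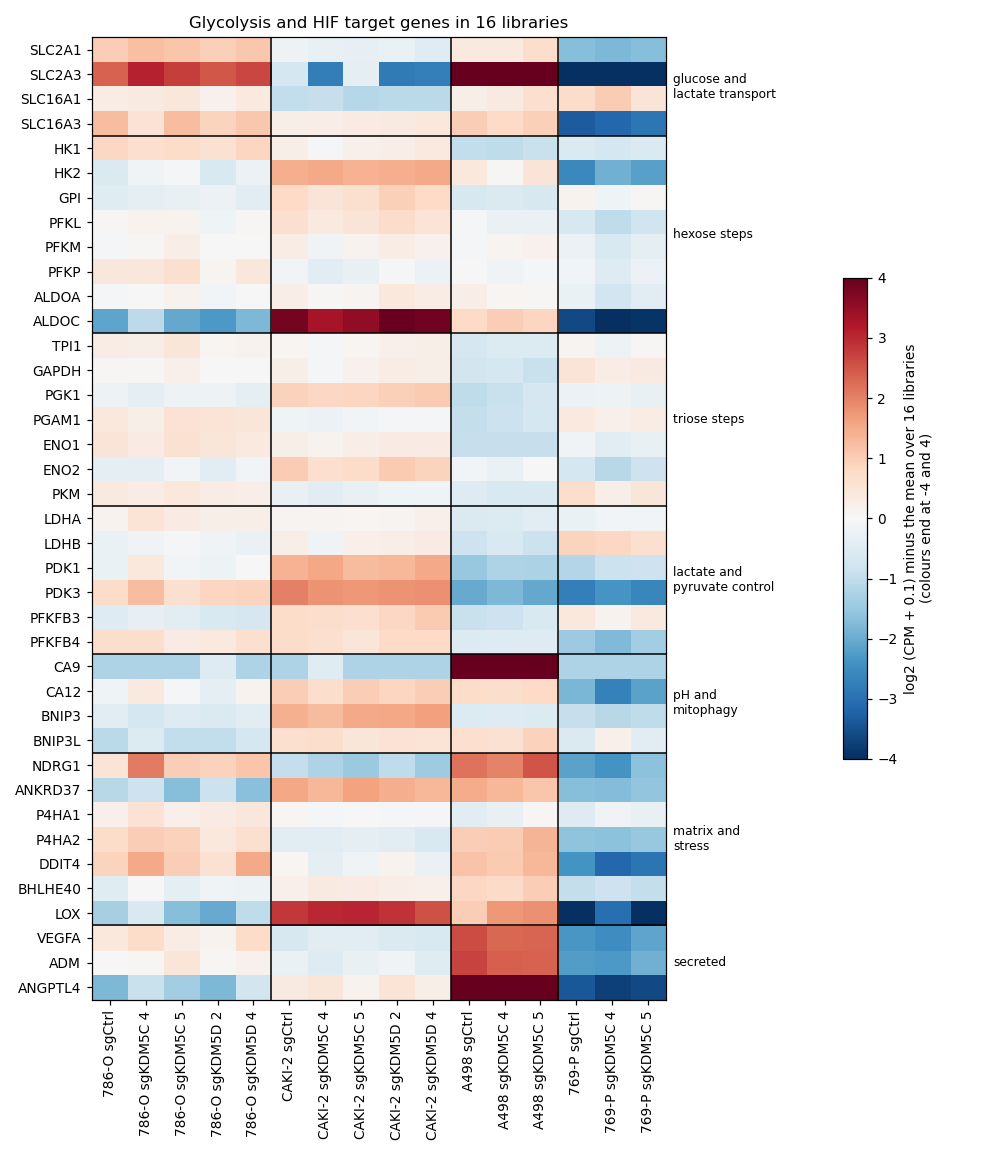
Heat map of the 39 genes (rows, grouped by role) in the 16 libraries (columns, grouped by line), coloured by log2 (CPM + 0.1) minus the mean of the gene over all libraries. Columns of a line resemble each other more than columns of a guide target; 769-P is blue in most rows outside the triose steps, A498 is pale blue in the triose steps and red in the secreted factors, and CAKI-2 is red in ALDOC, PDK1, PDK3, BNIP3 and LOX.

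Glucose and lactate transport differed most in 769-P. SLC2A1, the basal glucose transporter GLUT1, was at 1248 ± 93.0 CPM in 786-O, 825 ± 102 in A498, 485 ± 23.1 in CAKI-2 and 176 ± 4.91 in 769-P, and every neighbouring pair in this order was called. SLC2A3, the high-affinity glucose transporter GLUT3 (chromosome 12, 8071826 to 8171603, minus strand, GRCh37), was at 84.1 CPM in the sgCtrl and at 90.3 and 115 in the sgKDM5C 4 and 5 libraries of A498. In 786-O it was at 25.1 in the sgCtrl, 41.2 and 33.3 in the sgKDM5C 4 and 5, and 27.6 and 31.4 in the sgKDM5D 2 and 4 libraries, all below A498. In CAKI-2 it split into a higher pair, 2.92 CPM in the sgCtrl and 3.73 in the sgKDM5C 5 library, and a lower trio of 0.628 in sgKDM5C 4, 0.585 in sgKDM5D 2 and 0.636 in sgKDM5D 4. No SLC2A3 read was counted in any of the 3 769-P libraries, so that with a floor of 3 counts over the line the A498 level was at least 2476-fold higher. That bound, like other intervals from counts, covers counting error only.

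The lactate transporters differed in the place of 769-P. SLC16A3, the exporter MCT4, was at 26.7, 30.3 and 35.9 CPM in the sgCtrl, sgKDM5C 4 and sgKDM5C 5 libraries of 769-P. The same order of libraries gave 620, 396 and 627 CPM in 786-O (494 and 560 under sgKDM5D), 528, 466 and 511 in A498 and 312, 317 and 331 in CAKI-2 (341 and 357 under sgKDM5D). All 769-P libraries were thus far below all others, by 4.15 ± 0.17 (SE) on the log2 scale against 786-O (adjusted p = 1.17e-10), while 786-O and A498 were not called different. The SLC16A3 exons share 482 bases with CSNK1D on the opposite strand, and whether reads were counted by strand is not given. SLC16A1, the transporter MCT1, was instead highest in 769-P at 157 ± 27.5 CPM and lowest in CAKI-2 at 45.6 ± 3.88. Scaled by exon length, SLC16A1 made up 87.8% ± 3.17 of the summed SLC16A1 and SLC16A3 level in 769-P, against 24.6% ± 4.85 in 786-O, 17.2% ± 1.59 in CAKI-2 and 26.2% ± 3.24 in A498. On the same scale SLC2A3 contributed 9.6% ± 0.46 of the summed SLC2A1 and SLC2A3 level in A498, 2.35% ± 0.39 in 786-O and 0.456% ± 0.31 in CAKI-2.

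Among the hexose steps, 6 of the 8 genes had their highest level in CAKI-2, where 24.8% of all genes tested were highest. Of these 6, 4 were called above the next line, again without a share over all genes. HK2, the inducible hexokinase that traps glucose in the cell, was at 209, 219 and 200 CPM in the sgCtrl, sgKDM5C 4 and sgKDM5C 5 libraries of CAKI-2 and at 213 and 220 in the sgKDM5D libraries. The sgCtrl, sgKDM5C 4 and sgKDM5C 5 values were 102, 78.7 and 110 CPM in A498, 51.8, 70.0 and 74.6 in 786-O, and 12.8, 20.1 and 17 in 769-P, with 50.1 and 65.5 in the sgKDM5D libraries of 786-O. No library of one of these lines reached into the range of another, and CAKI-2 exceeded 769-P by 3.67 ± 0.16 (SE) on the log2 scale (adjusted p = 1.42e-10). HK1, the constitutive hexokinase, had another order, with 294 ± 14.9 CPM in 786-O, then CAKI-2 at 194 ± 20.6, 769-P at 114 ± 6.02 and A498 at 90.7 ± 4.36. HK2 accordingly made up 55.8% ± 3.64 and 55.2% ± 3.58 of the length-scaled hexokinase level in CAKI-2 and A498. The share was 20.6% ± 3.75 in 786-O and 14.5% ± 3.36 in 769-P. With the lengths of canonical transcripts HK1 was the larger, at 58.9% in CAKI-2 and 59.6% in A498.

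ALDOC, the brain-type aldolase (chromosome 17, 26900133 to 26903966, minus strand, GRCh37), spanned the widest range of the hexose steps. It was at 138, 95.7 and 113 CPM in the sgCtrl, sgKDM5C 4 and sgKDM5C 5 libraries of CAKI-2 and at 150 and 139 in its sgKDM5D libraries. The corresponding values were 16.6, 19.0 and 17.4 CPM in A498, 2.14, 4.61 and 2.26 in 786-O with 1.87 and 2.72 under sgKDM5D, and 0.700, 0.391 and 0.535 in 769-P. The 4 lines did not overlap, and CAKI-2 exceeded 769-P by 7.75 ± 0.28 (SE) on the log2 scale (adjusted p = 2.24e-11). Even in CAKI-2, ALDOC contributed only 4.94% ± 0.50 of the length-scaled aldolase level, the rest being ALDOA, the main aldolase, which ranged from 2114 ± 357 CPM in 769-P to 3243 ± 256 in CAKI-2. GPI, which isomerises glucose 6-phosphate, was at 672 ± 67.7 CPM in CAKI-2 and 279 ± 4.74 in A498.

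The phosphofructokinases, which catalyse the committed step, varied less. PFKP, the platelet type, was highest in 786-O at 1439 ± 101 CPM and lay between 831 and 967 CPM in the other lines. PFKL, the liver type, ran from 320 ± 30.8 CPM in CAKI-2 to 127 ± 15.4 in 769-P. PFKM, the muscle type, had the narrowest range of the 39 members. It was at 112, 118 and 138 CPM in the sgCtrl, sgKDM5C 4 and sgKDM5C 5 libraries of 786-O with 113 in both sgKDM5D libraries, at 140, 105 and 127 in CAKI-2 with 140 and 128 under sgKDM5D, at 111, 125 and 131 in A498 and at 96.7, 75.5 and 86.9 in 769-P. Only 769-P was apart, 0.53 ± 0.12 (SE) on the log2 scale below CAKI-2 (adjusted p = 0.00109), and the other neighbours in the order were not called. PFKM shares 516 exon bases with SENP1 on the opposite strand.

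The triose steps were lowest in A498 in 6 of 7 genes, where 27.2% of all genes tested were lowest in that line. ENO1, the ubiquitous enolase, was at 4177 ± 414 CPM in 786-O and 1582 ± 3.86 in A498. GAPDH, which oxidises glyceraldehyde 3-phosphate, was at 4128 ± 340 CPM in 769-P and 1838 ± 138 in A498. TPI1, PGAM1 and PKM, which act before and after these, were also lowest in A498, at 785 ± 33.8, 157 ± 14.3 and 3007 ± 86.5 CPM, although CAKI-2 and A498 were not called different in PKM. PGK1, the first ATP-forming enzyme of glycolysis, was at 1644, 1530 and 1594 CPM in the sgCtrl, sgKDM5C 4 and sgKDM5C 5 libraries of CAKI-2 and at 1689 and 1793 under sgKDM5D. In the same order it was at 759, 683 and 757 CPM in 786-O with 752 and 669 under sgKDM5D, at 745, 763 and 710 in 769-P, and at 430, 465 and 550 in A498. CAKI-2 was above and A498 below all other libraries, 1.73 ± 0.11 (SE) apart on the log2 scale (adjusted p = 1.03e-08), and 769-P and 786-O were not called different.

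ENO2, the neuronal enolase, was the exception of the triose steps in that 769-P was lowest. Its CPM in the sgCtrl, sgKDM5C 4 and sgKDM5C 5 libraries were 293, 229 and 237 in CAKI-2 with 294 and 267 under sgKDM5D, 133, 120 and 144 in A498, 111, 111 and 131 in 786-O with 105 and 133 under sgKDM5D, and 88.8, 67.0 and 81.2 in 769-P. CAKI-2 lay above and 769-P below all others, by 1.68 ± 0.13 (SE) on the log2 scale (adjusted p = 6.74e-08), whereas A498 and 786-O overlapped. Together the 17 enzyme genes of the hexose steps, the triose steps and lactate dehydrogenase took 1.5% to 1.52% of all counts in the A498 libraries, 1.86% to 2.31% in 769-P, 2.26% to 2.46% in 786-O and 2.21% to 2.57% in CAKI-2. A498 was thus below every other library in this share, while the other 3 lines overlapped in part.

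At the exit from glycolysis, the lactate dehydrogenase subunits differed in balance. LDHA, which favours lactate formation, ranged from 2398 ± 355 CPM in 786-O to 1317 ± 80.1 in A498. LDHB, which favours pyruvate, was highest in 769-P at 1477 ± 118 CPM and lowest in A498 at 501 ± 44.5. LDHB made up 63.9% ± 3.02 of the length-scaled sum of both in 769-P, against 47.8% ± 3.78 in CAKI-2, 43.4% ± 3.01 in A498 and 39.2% ± 2.62 in 786-O. Without length scaling the 769-P share was 46.7%, so that 769-P stood above the other lines on both scales, while LDHB was the larger of the 2 subunits there only after length scaling.

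PDK1 and PDK3, kinases that switch off pyruvate dehydrogenase, were highest in CAKI-2. PDK1 was at 55.5, 62.3 and 51.3 CPM in the sgCtrl, sgKDM5C 4 and sgKDM5C 5 libraries of CAKI-2 with 54.0 and 61.2 under sgKDM5D, at 17.7, 28.8 and 19.5 in 786-O with 18.3 and 21.4 under sgKDM5D, at 9.31, 11.7 and 12 in 769-P, and at 7.45, 9.01 and 8.75 in A498. PDK3 was at 25.9, 21.9 and 21.4 CPM in these CAKI-2 libraries with 22.3 and 22.5 under sgKDM5D, at 10.6, 14.9 and 9.95 in 786-O with 11.4 and 11.8 under sgKDM5D, at 1.49, 1.73 and 1.45 in A498, and at 0.865, 1.14 and 0.946 in 769-P. For both genes the CAKI-2 libraries were above all others and all 786-O libraries were above all of A498 and 769-P. The span from highest to lowest line was 2.75 ± 0.16 (SE) on the log2 scale for PDK1 and 4.54 ± 0.21 for PDK3 (adjusted p = 4.47e-09 and 3.1e-10). PFKFB3 and PFKFB4, whose product activates phosphofructokinase, were also highest in CAKI-2, PFKFB3 at 483 ± 9.996 CPM against 173 ± 18.9 in A498, and PFKFB4 at 35.1 ± 3.28 against 7.81 ± 1.02 in 769-P. PFKFB4 shares 298 exon bases with UCN2 on the same strand, and its CAKI-2 and 786-O levels were not called different.

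**Figure D2:**
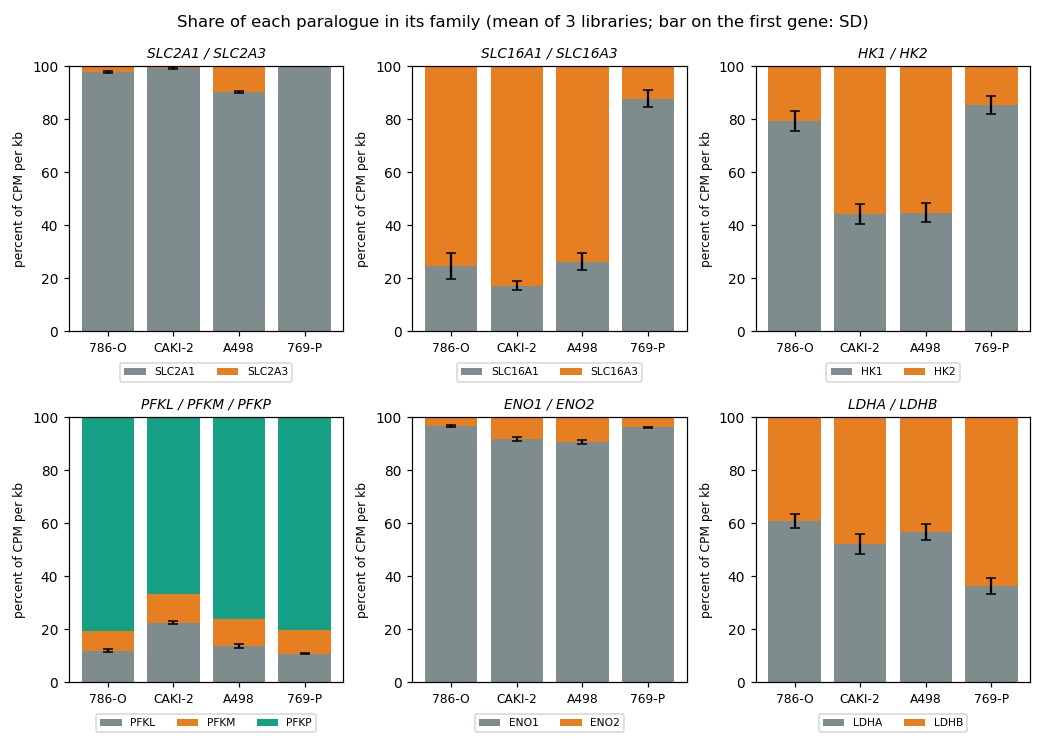
Share in percent of each paralogue in the summed CPM per kb of exon of its family, by line (stacked bars, mean of the sgCtrl and the 2 sgKDM5C libraries; error bars on the first gene, SD). SLC16A1 makes up 87.8% in 769-P and 17.2% to 26.2% elsewhere, HK2 55.8% in CAKI-2 and 55.2% in A498 against 20.6% in 786-O and 14.5% in 769-P, and LDHB 63.9% in 769-P.

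Of the carbonic anhydrases, which buffer the acid that glycolysis forms, CA9 was read in A498 and hardly elsewhere. Its counts in A498 were 224, 159 and 146 in the sgCtrl, sgKDM5C 4 and sgKDM5C 5 libraries, equal to 9.53, 5.97 and 5.55 CPM. In 786-O 2 reads were counted, both in the sgKDM5D 2 library, in CAKI-2 2 reads in the sgKDM5C 4 library, and in 769-P none. A498 was therefore at least 177-fold above 769-P (floor of 3 counts over the line), 489-fold above 786-O (95% exact interval from counts 135 to 4048) and 563-fold above CAKI-2 (155 to 4660). CA9 (chromosome 9, 35673925 to 35681156, plus strand, GRCh37) shares 571 exon bases with ARHGEF39 on the opposite strand, which had 6001 counts in all libraries against 533 for CA9.

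CA12, another membrane-bound carbonic anhydrase, was abundant in CAKI-2, A498 and 786-O. It was at 1474, 1225 and 1491 CPM in the sgCtrl, sgKDM5C 4 and sgKDM5C 5 libraries of CAKI-2 with 1345 and 1493 under sgKDM5D, at 1253, 1219 and 1309 in A498, at 671, 976 and 711 in 786-O with 567 and 824 under sgKDM5D, and at 212, 116 and 168 in 769-P. CAKI-2 and A498 overlapped, and both were above 786-O, which was above 769-P. The log2 difference of CAKI-2 from 769-P was 3.10 ± 0.19 (SE; adjusted p = 4.26e-09). Of the mitophagy receptors, BNIP3 was at 229 ± 19.1 CPM in CAKI-2 and 42.7 to 59.6 CPM in the other lines. Its paralogue BNIP3L was instead at 106 ± 12.2 in A498 and 97.3 ± 7.40 in CAKI-2, which were not called different. BNIP3L was lowest in 786-O at 35.4 ± 7.44. It shares 330 exon bases with PNMA2 on the opposite strand, which had 15406 counts against 33033 for BNIP3L.

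Of the matrix and stress genes, LOX, which cross-links collagen, and ANKRD37, an ankyrin repeat protein, were high in CAKI-2 and A498. LOX was at 44.3, 50.6 and 51.5 CPM in the sgCtrl, sgKDM5C 4 and sgKDM5C 5 libraries of CAKI-2 with 46.5 and 36.9 under sgKDM5D, at 12.4, 20.6 and 21.9 in A498, at 2.37, 4.03 and 1.83 in 786-O with 1.45 and 2.98 under sgKDM5D, and at 0.206, 0.676 and 0.123 in 769-P. The lines did not overlap, and CAKI-2 exceeded 769-P by 7.19 ± 0.42 (SE) on the log2 scale (adjusted p = 2.82e-09). LOX shares 138 exon bases with SRFBP1 on the opposite strand, which had 6204 counts against 9341 for LOX. ANKRD37 was at 3.48 ± 0.37 CPM in CAKI-2 and 3.06 ± 0.41 in A498 but at 0.464 ± 0.17 in 786-O and 0.301 ± 0.02 in 769-P, and neither pair was called different within itself. ANKRD37 shares 909 exon bases with UFSP2 on the opposite strand, which had 5376 counts against 878. HIF1A had the same split, with 83.6 to 141 CPM in the CAKI-2 and A498 libraries and 2.88 to 6 CPM in those of 786-O and 769-P, and with 4 lines its part in these levels was not tested.

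NDRG1, a stress-responsive gene, was instead highest in A498 and 786-O. It was at 3454, 3053 and 4414 CPM in the sgCtrl, sgKDM5C 4 and sgKDM5C 5 libraries of A498, at 1107, 3270 and 1517 in 786-O with 1461 and 1673 under sgKDM5D, at 403, 327 and 279 in CAKI-2 with 382 and 290 under sgKDM5D, and at 177, 146 and 248 in 769-P. The 786-O sgKDM5C 4 library alone reached the A498 range, and A498 exceeded 769-P by 4.26 ± 0.29 (SE) on the log2 scale (adjusted p = 9.01e-09). DDIT4, which restrains mTORC1, and P4HA2, a collagen prolyl hydroxylase, had the same upper pair, DDIT4 at 205 ± 19.5 CPM in A498 and 202 ± 49.95 in 786-O against 13.1 ± 3.81 in 769-P, and P4HA2 at 272 ± 41.7 and 227 ± 19.7 against 41.1 ± 1.60. BHLHE40, a transcriptional repressor, was at 548 ± 44 CPM in A498 and 161 ± 8.24 in 769-P, and P4HA1, the paralogue of P4HA2, varied less, from 112 ± 17.2 CPM in 786-O to 71.8 ± 9.23 in 769-P.

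The 3 secreted factors were all highest in A498 and lowest in 769-P. ANGPTL4, an inhibitor of lipoprotein lipase (chromosome 19, 8428173 to 8439254, plus strand, GRCh37), was at 1494, 1181 and 1290 CPM in the sgCtrl, sgKDM5C 4 and sgKDM5C 5 libraries of A498. It was at 45.8, 49.3 and 39.3 CPM in CAKI-2 with 51.7 and 41.8 under sgKDM5D, at 10.1, 19.0 and 13.4 in 786-O with 10.2 and 21.4 under sgKDM5D, and at 3.30, 2.60 and 2.80 in 769-P. The lines did not overlap, and the 8.83 ± 0.30 (SE) on the log2 scale between A498 and 769-P (adjusted p = 1.53e-11) was the widest span among members with reads in all 4 lines. VEGFA, the angiogenic growth factor, was at 1638, 1327 and 1341 CPM in A498, at 356, 449 and 327 in 786-O with 294 and 448 under sgKDM5D, at 170, 201 and 198 in CAKI-2 with 177 and 177 under sgKDM5D, and at 53.0, 48.0 and 62.4 in 769-P. It followed the order A498, 786-O, CAKI-2, 769-P without overlap, with 4.71 ± 0.19 (SE) on the log2 scale between the ends (adjusted p = 5.36e-11). ADM, a vasodilator peptide, had the same order, from 463 ± 60.4 CPM in A498 to 18.6 ± 2.81 in 769-P.

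EPAS1 followed this order too, with 355 to 481 CPM in the A498, 188 to 329 in the 786-O, 48.8 to 75.7 in the CAKI-2 and 18.7 to 32.0 in the 769-P libraries. VHL, which acts upstream, was at 0 to 0.123 CPM in 769-P and at 22.4 to 33.9 CPM in the other lines. A transcript level does not show whether a line has working VHL. ARNT was at 18.4 to 23.1 CPM in A498 and 51.6 to 73.5 CPM elsewhere, and MYC, a further activator of glycolytic genes, was highest in 769-P at 223 to 275 CPM. The part of any of these regulators in the levels of the members was not tested. Of 38 further genes of the same pathways, 36 were tested, and 35 of them differed among the lines, beside 91.5% of all genes. The median log2 difference of these 36 from 769-P was 0.22 for 786-O, 0.54 for CAKI-2 and 0.71 for A498. Higher than in 769-P were 16, 20 and 22 of them, beside 25.4%, 36.2% and 38.8% of all genes. Lower were 10, 7 and 3, beside 27%, 29.5% and 32.3%. Compared with CAKI-2, 10 were higher and 18 lower in 786-O, beside 29.2% and 35.8%. Compared with A498, 4 were higher and 23 lower in 786-O (31.4% and 38.6%), and 11 and 19 in CAKI-2 (34.4% and 32.9%).

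The second comparison asked how the members changed with guides against KDM5C. No member was called in 786-O, CAKI-2, A498 or 769-P, in the mean over the lines or in the difference of the effect between lines, at an adjusted p under 0.05 in edgeR, and none in DESeq2. Of all genes tested, 0.00991%, 0%, 0.00496%, 0.00496%, 0.00991% and 0% were called in these comparisons. At an unadjusted p under 0.05, 2, 0, 0, 2, 1 and 0 members passed in edgeR, beside 2.92%, 1.94%, 5.55%, 3.32%, 5.18% and 2.29% of all genes, and 4, 0, 0, 4, 2 and 0 passed in DESeq2. The edgeR counts, small out of 39, are read against these edgeR shares of all genes and show nothing particular to the members. For DESeq2 no shares of all genes are given, here or in the later guide comparisons, so nothing is read from its counts.

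NDRG1 had the largest fitted change in 786-O, a log2 difference of 1.11 ± 0.40 (SE; unadjusted p = 0.0146, adjusted p = 1). Its levels given above show where this came from, since the sgKDM5C 4 library was at 3270 CPM and the sgKDM5C 5 library, at 1517, lay between the sgKDM5D libraries at 1461 and 1673. Without the sgKDM5C 4 library the difference was 0.46, and without the sgKDM5C 5 library it was 1.56 with an adjusted p of 0.0347. That p sets 1 library against 1, and rests on the assumption that both vary like the libraries of the other groups. EPAS1 was at 329 CPM in the same sgKDM5C 4 library against 188 to 243 CPM in the other 4 libraries of 786-O, and its part in the NDRG1 level was not tested. HK2 was higher than the control in both sgKDM5C libraries of 786-O, with a difference of 0.48 ± 0.22 (unadjusted p = 0.0437), and in both of 769-P, with 0.54 ± 0.23 (unadjusted p = 0.0354), but the adjusted p was 1 in both lines. In CAKI-2 and A498 the 2 sgKDM5C libraries lay on either side of the control. CA12 in 769-P was at 116 and 168 CPM in sgKDM5C against 212 in the control, a difference of -0.57 ± 0.26 (unadjusted p = 0.043, adjusted p = 1). It was -0.31 without the sgKDM5C 4 and -0.86 without the sgKDM5C 5 library, so its size depended on which guide was kept.

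PDK1 was the single member with an unadjusted p under 0.05 in the mean over the lines in edgeR, with a log2 difference of 0.27 ± 0.12 (unadjusted p = 0.04, adjusted p = 0.901). It was above the control in 7 of 8 sgKDM5C libraries, the exception being CAKI-2 sgKDM5C 5. LDHA and P4HA2 were also higher in 7 of 8, and HK1, PFKP and PKM in 1 of 8, as was CA9, which had no read in most libraries. Over all genes tested, 6.45% were higher in at least 7 and 9.57% in at most 1 of the 8 libraries. For the members these shares were 7.69% and 10.3%. Both sgKDM5C libraries of a line share its control, so the 8 are not independent. The largest log2 ratio of PDK1 to its control, 0.70, was again in the 786-O sgKDM5C 4 library, and without that library the mean difference was 0.19.

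As a set the members moved little and in different directions. The median log2 ratio of the 39 members to the control of the line was 0.15 and 0.10 in the sgKDM5C 4 and 5 libraries of 786-O and 0.0044 and 0.11 in those of A498, but -0.13 and -0.06 for CAKI-2 and -0.14 and -0.05 for 769-P, where the medians over all genes lay between -0.01 and 0.01. With both guides 24 members were higher and 3 lower in 786-O and 15 higher and 10 lower in A498, whereas 5 were higher and 21 lower in CAKI-2 and 7 higher and 19 lower in 769-P. Over all genes tested, 23.4% were higher and 25.9% lower with both guides in 786-O, and 37.9% and 34.8% in A498. The shares were 30.6% and 33.3% for CAKI-2 and 27.2% and 29.1% for 769-P. Both ratios of a line use the same sgCtrl library, so the guides are not independent, and the genes are not replicates. In 769-P the sgKDM5C 4 library was lower than the control in most enzyme genes, with PKM at 5283 against 7290 CPM, ALDOA at 1729 against 2435 and GAPDH at 3867 against 4513, and the sgKDM5C 5 library lay between these at 6286 and 2179 CPM for PKM and ALDOA. None of these changes was called, and the difference of the effect between lines had an adjusted p of 1 in each member.

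**Figure D3:**
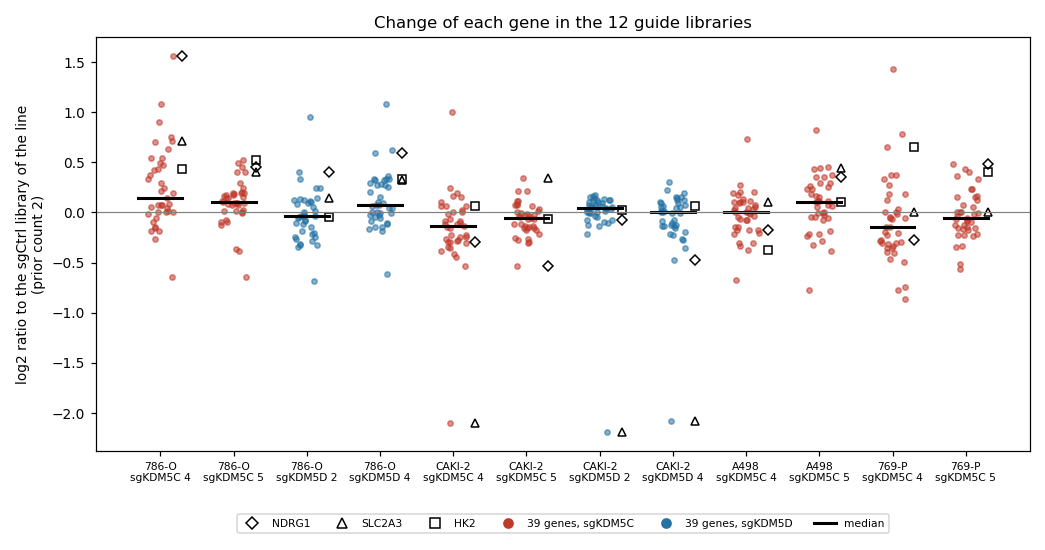
Log2 ratio of each of the 39 genes to the sgCtrl library of its line (prior count 2) in the 12 sgKDM5C and sgKDM5D libraries; bars are medians, and NDRG1, SLC2A3 and HK2 are drawn again as open symbols. The medians lie between -0.14 and 0.15, NDRG1 stands out in the 786-O sgKDM5C 4 library at 1.56, and SLC2A3 is near -2 in 3 of the 4 CAKI-2 libraries.

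The third comparison was of guides against KDM5D, in the lines 786-O and CAKI-2, with the same control libraries. No member was called in 786-O, in CAKI-2 or in the difference between these lines in edgeR or DESeq2, beside 0.0149%, 0% and 0.00496% of all genes in edgeR. At an unadjusted p under 0.05 0, 1 and 1 members passed in edgeR, beside 1.82%, 0.773% and 1.47% of all genes, and 1, 1 and 0 in DESeq2. The member was SLC2A3, at 0.585 and 0.636 CPM (15 and 18 counts) in the sgKDM5D libraries of CAKI-2 against 2.92 CPM (107 counts) in the control, a log2 difference of -2.25 ± 0.67 (unadjusted p = 0.00507, adjusted p = 1). The difference from the effect in 786-O was -2.48 ± 0.83 (unadjusted p = 0.0108, adjusted p = 1), since in 786-O the sgKDM5D libraries at 27.6 and 31.4 CPM lay just above the control at 25.1. The sgKDM5C 4 library of CAKI-2 was as low as the sgKDM5D libraries, with 18 counts. The sgKDM5C 5 library had 162 counts, so the split did not follow the guide target. The CAKI-2 sgCtrl and sgKDM5C 5 libraries, where SLC2A3 was higher, also had the most total counts, 35.4M and 41.6M. The lower libraries had 25.0M to 27.4M, and a part of depth in the split was not tested. The median log2 ratio of the 39 members was -0.04 and 0.07 in the sgKDM5D 2 and 4 libraries of 786-O and 0.04 and 0 in those of CAKI-2.

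sgKDM5C and sgKDM5D libraries were also compared directly, without the control. No member was called in 786-O or CAKI-2 in edgeR or DESeq2, beside 0.0644% and 0% of all genes in edgeR. At an unadjusted p under 0.05 1 and 3 members passed in edgeR, beside 4.78% and 3.38% of all genes, and 2 and 3 in DESeq2. In 786-O this was P4HA2, at 244 and 232 CPM in the sgKDM5C and 165 and 193 in the sgKDM5D libraries with 205 in the control, a log2 difference of 0.41 ± 0.15 (unadjusted p = 0.0144, adjusted p = 0.776). The guide targets did not overlap, and the control lay between them. P4HA2 in the sgCtrl, sgKDM5C 4 and sgKDM5C 5 libraries of the other lines was at 247, 248 and 320 CPM in A498, 90.7, 91.0 and 95.6 in CAKI-2 with 90.8 and 81.5 under sgKDM5D, and 40.8, 39.7 and 42.8 in 769-P. In CAKI-2 these were SLC2A3, with 1.91 ± 0.60 (unadjusted p = 0.00718), which was 0.03 without the sgKDM5C 5 library, GPI, with -0.30 ± 0.13 (unadjusted p = 0.0388), and ALDOC, with -0.47 ± 0.22 (unadjusted p = 0.0479), each at an adjusted p of 1. GPI was at 608 and 665 CPM in the sgKDM5C, 826 and 746 in the sgKDM5D and 743 in the sgCtrl library. In the other lines GPI was at 307, 326 and 350 CPM in the sgCtrl, sgKDM5C 4 and sgKDM5C 5 libraries of 786-O with 365 and 323 under sgKDM5D, at 277, 285 and 276 in A498 and at 471, 384 and 447 in 769-P, all below CAKI-2. The ALDOC levels given above were, like those of GPI, lower in both sgKDM5C libraries than in both sgKDM5D libraries and the control. Of the 36 further pathway genes tested, none was called in any guide comparison in edgeR. At an unadjusted p under 0.05, 5 passed with sgKDM5C in the mean over the lines, all higher, beside 5.18% of all genes. In single lines 4 passed with sgKDM5C for 786-O, all higher, 2 for 769-P, 1 for A498 and 0 for CAKI-2. The shares of all genes were 2.92%, 3.32%, 5.55% and 1.94%. The difference of this effect between lines gave 1 gene, beside 2.29%. For sgKDM5D 0 passed in 786-O, 1 in CAKI-2 and 0 in their difference, beside 1.82%, 0.773% and 1.47%. Between sgKDM5C and sgKDM5D, 5 passed in 786-O and 2 in CAKI-2, beside 4.78% and 3.38%.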

How the data were processed

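The authors extracted total RNA, prepared stranded libraries and sequenced them in pairs, and deposited raw counts per gene and library. The submitters' processing notes name Trimmomatic 0.38, STAR 2.5.2b and GRCh37. The counting tool, annotation and use of strand are not given in the sources used here, which matters for genes with antisense partners. Of 57773 Ensembl IDs, 55538 matched GENCODE release 44 lifted to GRCh37. The table had 0 columns of no sample.

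Libraries held between 23.4M and 41.6M counts (M, 10 to the power 6). Genes whose counts summed to 60 or more were tested with the quasi-likelihood F-test of edgeR 4.0.16 (R 4.3.3) on all 16 libraries, with TMM scaling, 1 mean per group of line and guide target, 6 residual degrees of freedom and Benjamini-Hochberg adjustment over all 20175 genes. A line's level weighted its sgCtrl and sgKDM5C libraries equally. CPM used the TMM-scaled total, single-library ratios a prior count of 2, and paralogue shares CPM per kb of annotated exon. SE is the size of the log2 difference over the square root of F. Guide numbers were not used as pairs (see the limits below). The 2 libraries of each group with 2 guides differed by more than sampling noise (chi-square of 9.6 to 69 per gene).

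Levels in every library are given for the 2 members per role with the widest range between lines, the member with the narrowest, and members passing an unadjusted p under 0.05 in a guide comparison, which is the rule for the named genes. The members, lists and rule were chosen with earlier results of these data known. The procedure was tested on simulated data. Alternatives were RLE factors, DESeq2 1.42.0, filterByExpr, no filter beyond 1 count, a guide block, fits per line or of the 12 sgCtrl and sgKDM5C libraries, control libraries alone, leaving out each guide library or line, and, chosen after seeing the data, canonical transcript lengths.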

Additional observations from a re-analysis of the deposited data

How the results depend on the processing

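The numbers of members called between lines kept within 1.5 times of the values given, with 36 to 39 for the difference among the 4 lines and 23 to 37 for the pairs under the alternatives run. The lowest count, 23 for 786-O against 769-P, came from the control libraries alone. The sgKDM5C guide numbers did not pair the libraries: the correlation of same-numbered deviations from the group means ran from -0.223 to 0.291 between lines over 12075 genes. The sgKDM5D guide numbers were not examined in this way. With the guide number as a replicate block, 39 members were called among the 4 lines, 30, 30, 33, 31, 33 and 36 between the pairs in the order 786-O against CAKI-2, A498 and 769-P, CAKI-2 against A498 and 769-P, and A498 against 769-P, and 0 in each guide comparison.

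The guide comparisons, with 0 members called, moved to 1 in some alternatives. With no filter beyond 1 count, 1 member was called in 6 of them: NDRG1 for sgKDM5C in 786-O (log2 difference 1.12, adjusted p = 3.68e-07), in its difference between lines and against sgKDM5D in 786-O, and SLC2A3 for sgKDM5D in CAKI-2 (-2.28), in its difference from 786-O (-2.53) and for sgKDM5C against sgKDM5D in CAKI-2 (1.96). The same fold changes stood beside far smaller p-values there, and the cause was not tested. A fit of the A498 libraries alone called 1 member, LOX. Leaving out 1 library gave 0 to 1 members for sgKDM5C in 786-O (NDRG1 without the sgKDM5C 5 library), 0 to 1 for sgKDM5C against sgKDM5D in 786-O (ALDOC without the sgKDM5C 5 library) and 0 to 1 in CAKI-2 (SLC2A3 without the sgKDM5C 4 library). In these fits the sgKDM5C arm is 1 library, assumed to vary like the libraries of the other groups. No log2 difference changed sign in an alternative run among those of members named for a guide comparison, in that comparison, or for a wide range, between their highest and lowest line. Other guide comparisons can turn with the library left out, such as HK2 for sgKDM5C in CAKI-2 and A498, where the guides had opposite signs. Medians per library were the same with a prior count of 0.5 to within the spread between guides. Shares of paralogues moved with the length used. With canonical transcript lengths HK2 made up 41.1% in CAKI-2 and 40.4% in A498, so HK1 was then the larger in both, and SLC16A1 made up 77.5% in 769-P.

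With 1 control library per line, a change near 1 on the log2 scale in 1 line is more often missed than called. In the simulated data, with line differences removed, 27% of changes of 1 with sgKDM5C in 1 line were called. For changes of 2 the share was 87%. A member absent from these calls is not shown to be unchanged. Members under about 1 CPM rest on few reads, such as the 15 SLC2A3 counts of 1 CAKI-2 library. Fewer cells of a type and less RNA per cell cannot be told apart in bulk RNA.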
